A study of Mus musculus with 28 samples.

Results

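The ZBTB family was followed across regulatory T (Treg) cells and conventional CD4 T cells of the mouse. Members were all genes whose symbol begins with Zbtb followed by a number, which gave 41 of the 23420 genes in the count tables. No measured value entered that choice. One of them, Zbtb8os, bears the name because it lies on the opposite strand beside Zbtb8a and encodes no BTB-zinc finger protein, and it was kept because the name rule takes it.

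ZBTB proteins carry an N-terminal BTB domain, through which they pair with each other and recruit corepressor complexes, and C-terminal zinc fingers, which bind DNA. Most of those studied act as transcriptional repressors, and several fix the fate of lymphocytes. In T cells, Zbtb7b (ThPOK) commits thymocytes to the CD4 lineage and keeps CD8 lineage genes off, while Zbtb16 (PLZF) directs the innate-like programme of NKT cells. Treg cells are CD4 T cells that restrain immune responses and depend on the transcription factor Foxp3.

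The RNA came from sorted thymic and splenic T cells, taken from male mice 6 to 8 weeks old. All groups carried a Foxp3-gfp reporter allele, in which green fluorescent protein marks Foxp3-expressing cells. In the mice called KO here the allele also lacked CNS3, a conserved non-coding element of Foxp3 (Foxp3-deltaCNS3-gfp), and in WT mice (wild type Foxp3-gfp) it was intact. Each genotype gave 4 populations, namely thymic Treg cells, thymic non-Treg CD4+ single positive cells that the sample titles call mCD4SP, and splenic Treg cells in the fractions that the titles call rTreg and aTreg without spelling out the letters, with 4 KO and 3 WT libraries in each. The design text speaks of a pair of littermates per genotype and does not tie libraries to animals, so libraries of a group may share an animal and the p-values measure only the spread between these libraries.

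The 28 libraries held between 22037995 and 40754492 counts in genes, and the 41 members together took 0.0927% to 0.114% of them. Foxp3 averaged 544 ± 73.7 CPM (a count scaled by the size of its library) in KO thymic Treg cells (SD, n = 4) and 652 ± 16.3 CPM in WT thymic Treg cells (SD, n = 3), against 1.44 CPM in KO mCD4SP cells and 3.37 CPM in WT mCD4SP cells. Because the deleted element is non-coding, counts over Foxp3 exons say nothing of whether it is present. T cell marker genes summed to between 7554 and 12000 CPM per library. The KO thymic Treg libraries stood apart from the WT ones in several sums, which are given beside the KO comparison below. No pair of libraries in a group matched within sampling noise. All levels below are CPM after scaling for library composition, unless CPM per kilobase (CPM per kb) is named, and all fold changes are log2 values from edgeR's quasi-likelihood test with its standard error (SE) and its Benjamini-Hochberg adjusted p over all 13338 genes tested. A gene is said to be called, higher or lower where that adjusted p was under 0.05.

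Of the 41 members, 39 passed the filter on low counts. Zbtb7c had 0 to 2 counts per library and Zbtb8b had 0 to 4, and neither was tested. The genes lie on 15 chromosomes of GRCm38, and 9 have another member within 200 kilobases. Zbtb1 and Zbtb25 are the closest of the pairs that do not overlap, at 664 bases, while exons of Zbtb6 and Zbtb26 and of Zbtb8a and Zbtb8os overlap. Where exons of different genes overlap, the counts of the genes cannot be told apart without knowledge of the strand setting, not given in the sources used. That touches Zbtb9 most, since 92.8% of its exon bases lie under exons of other genes, and its values are uncertain. It also touches 15.6% of the exon bases of Zbtb37, 13.0% of those of Zbtb5, 12.1% of those of Zbtb14, 11.5% of those of Zbtb11 and 11.4% of those of Zbtb8a, with 9.3% or less in the others.

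The 250 bases before the start of 3 members are shown because the results turn on these genes. Zbtb32 had the widest range of levels over the 8 groups, and Zbtb11 and Zbtb44 were the members called between KO and WT mice. The sequences are RefSeq's for GRCm38.p6, 5′ to 3′ on the strand of the gene. Capitals mark matches, on either strand, to the CCAAT box (CCAAT), the GC box (GGGCGG), an ETS motif (CCGGAAG), the cyclic AMP response element (TGACGTCA) or the AP-1 motif (TGACTCA).
Zbtb32 chr7:30598910-30599159, minus strand: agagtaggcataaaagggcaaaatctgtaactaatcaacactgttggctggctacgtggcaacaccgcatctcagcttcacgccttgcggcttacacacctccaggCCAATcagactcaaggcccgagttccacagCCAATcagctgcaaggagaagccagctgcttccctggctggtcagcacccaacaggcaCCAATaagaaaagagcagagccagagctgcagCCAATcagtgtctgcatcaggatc
Zbtb11 chr16:55973554-55973803, plus strand: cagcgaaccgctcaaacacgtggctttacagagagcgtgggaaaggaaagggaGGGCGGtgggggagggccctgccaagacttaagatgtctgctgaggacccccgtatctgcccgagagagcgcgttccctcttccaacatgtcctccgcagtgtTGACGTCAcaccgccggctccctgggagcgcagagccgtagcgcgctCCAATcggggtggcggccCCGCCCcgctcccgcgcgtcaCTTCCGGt
Zbtb44 chr9:31030394-31030643, plus strand: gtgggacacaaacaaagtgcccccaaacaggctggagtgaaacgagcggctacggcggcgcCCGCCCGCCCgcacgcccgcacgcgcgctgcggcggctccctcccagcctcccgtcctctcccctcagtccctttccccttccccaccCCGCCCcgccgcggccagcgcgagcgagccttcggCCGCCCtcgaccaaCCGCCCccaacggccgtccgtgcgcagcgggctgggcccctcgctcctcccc
The Zbtb32 window held 4 CCAAT boxes and no GC box, with 53.6% G and C bases. The Zbtb11 window held 1 CCAAT box, 2 GC boxes, 1 ETS motif and 1 cyclic AMP response element at 66.0% G and C. The antisense transcript Zbtb11os1 is among the genes whose exons overlap those of Zbtb11. The Zbtb44 window was 76.0% G and C and held 5 GC boxes.

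The promoter table held 36 of the 41 members. A GC box occurred in 23 of these windows (63.9%), against 32.9% of all 27025 windows of the same length, and the ETS motif in 8 (22.2%), against 7.05% of all. CCAAT boxes occurred in 12 member windows (33.3%), against 34.5% of all. The cyclic AMP response element was found in 1 member window, that of Zbtb11 (2.78%, against 1.62% of all), and the AP-1 motif in 1, that of Zbtb46 (2.78%, against 4.43% of all). Member windows were also richer in G and C, with a median of 64.6% (range 40.4% to 84.0%), against a median of 52.0% over all windows. A match describes the letters in the window and nothing more.

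Per length of exon, Zbtb11 and Zbtb1 were the most abundant members. Zbtb1, which T cell development requires in the mouse, averaged 11.9 CPM per kb in WT thymic Treg cells, 12.7 in WT mCD4SP cells, 10.9 in WT rTreg cells and 14.5 in WT aTreg cells. Zbtb11, needed for neutrophil development in zebrafish, averaged 11.5, 14.4, 14.7 and 10.6 CPM per kb in the same order of populations. Next came Zbtb24, the gene mutated in one form of the ICF immunodeficiency syndrome, and Zbtb4, a protein that binds methylated DNA, with means over the WT groups of 8.55 and 8.44 CPM per kb. Zbtb9, uncertain for the overlap given above, Zbtb43 and Zbtb7b lay at 8.41, 8.36 and 8.00 CPM per kb, and Zbtb7a (LRF), which acts in the choice between B and T lineage, at 7.90.

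At the other end, Zbtb16 reached 0.277 CPM per kb in WT mCD4SP cells and 0.0130 to 0.0511 in the WT Treg groups. Zbtb46, known as a marker of classical dendritic cells, averaged 0.0719 CPM per kb over the WT groups. Zbtb12, Zbtb7c and Zbtb8b stayed under 1 CPM in every group. Most members were present everywhere, and 35 of the 41 exceeded the filter level of 0.338 CPM in all 28 libraries.

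**Figure D1:**
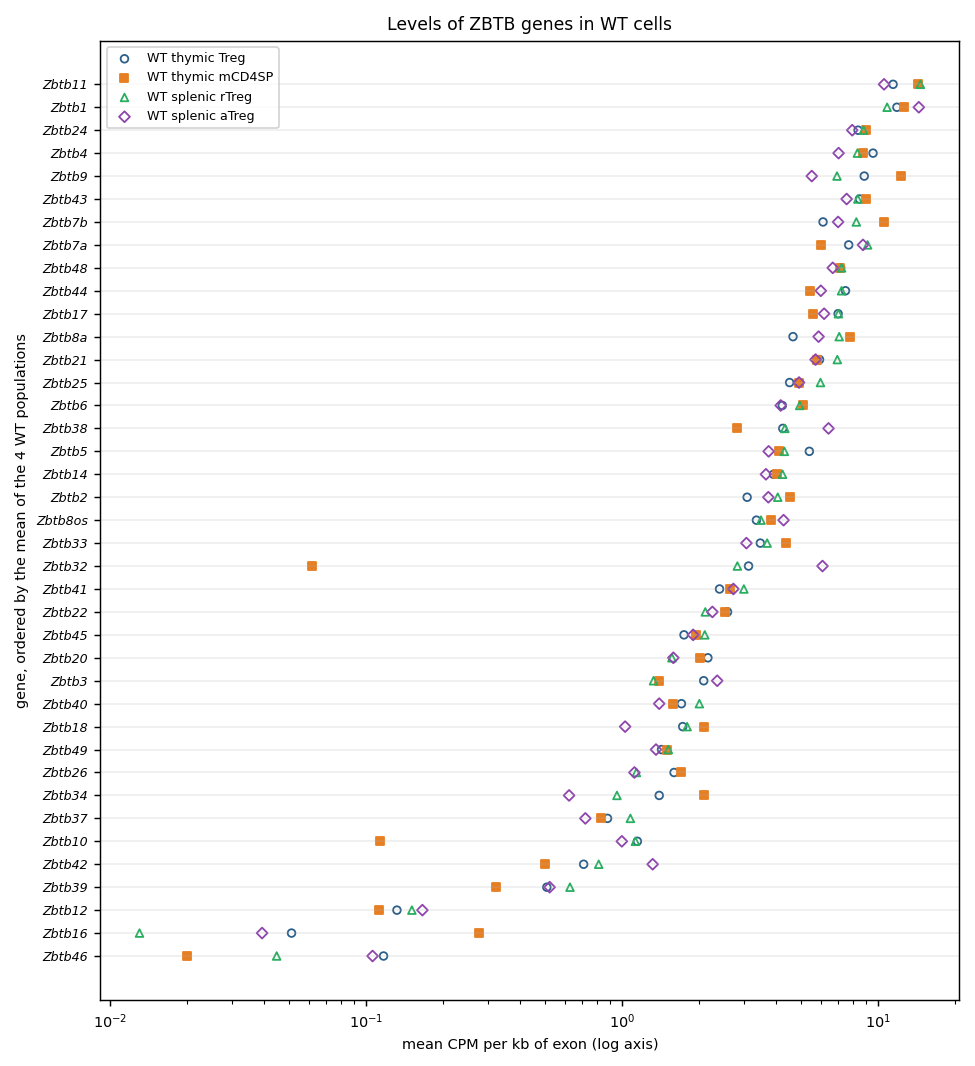
Mean level of 39 members in the 4 WT populations, in CPM per kilobase of exon on a log axis (n = 3 libraries each, points are group means). Zbtb11 and Zbtb1 lie at the top in every population, and Zbtb32 and Zbtb10 fall far below the other populations in mCD4SP cells (Zbtb7c and Zbtb8b are left out).

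Thymic Treg cells were compared with thymic mCD4SP cells, which asks how Treg cells differ from conventional CD4 T cells of the same organ. In WT mice 10 of 39 members were higher in Treg cells and 9 were lower. That is 48.7% of the members, beside 48.3% of all genes tested (percent called, 26.8% higher and 21.6% lower), so the family's share was near the background. The median log2 fold change of the members was -0.05, beside 0.03 over all genes. Zbtb32 and Zbtb10 carried by far the widest gaps among the higher members, and Zbtb7b the smallest p among the lower ones. In bulk libraries a gene expressed in fewer cells and a gene with less RNA per cell cannot be told apart.

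Zbtb7b (chr3:89377644-89394776, minus strand, GRCm38, protein coding like the others placed below) came first among the lineage factors. Its levels were 33.9, 35.6 and 33.2 CPM in the WT thymic Treg libraries, against 55.0, 58.6 and 64.9 CPM in the WT mCD4SP libraries. Every Treg library lay below every mCD4SP library, with a log2 fold change of -0.80 (SE 0.106, adjusted p = 4.01e-07). The KO libraries, which share no sample with the WT ones, held 25.2, 25.9, 32.8 and 30.1 CPM in thymic Treg cells, against 50.05, 43.5, 53.2 and 54.8 CPM in mCD4SP cells, a log2 fold change of -0.82 (SE 0.0932, adjusted p = 1.57e-08).

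Zbtb16 (chr9:48654297-48836222, minus strand) was rare in both populations. Its counts were 18, 3 and 10 in the WT thymic Treg libraries, against 27, 90 and 42 in the WT mCD4SP libraries, or 0.270 ± 0.180 CPM against 1.47 ± 0.699 CPM (SD, n = 3 each). The log2 fold change of -2.40 (SE 0.815, adjusted p = 0.0162) rested on few libraries, since the adjusted p was 0.0743 without WT thymic Treg library 2, 0.0517 without WT thymic Treg library 3 and 0.0876 without WT mCD4SP library 2. In KO mice the counts were 19, 2, 3 and 3 in thymic Treg cells, against 22, 85, 63 and 30 in mCD4SP cells, with a log2 fold change of -2.97 (SE 0.739, adjusted p = 0.00118). Genes of innate-like T cells did not share that direction as a list, since 8 of its 14 tested genes were higher in WT thymic Treg cells and 1 was lower. None of the 15 listed genes was at 0 in either group, and their summed level was 1778 to 1919 CPM in WT thymic Treg cells, against 256.8 to 301.9 CPM in WT mCD4SP cells. Many were near the floor, as 7 of the 15 averaged under 1 CPM in WT thymic Treg cells and 10 in WT mCD4SP cells. The part of innate-like T cells in the Zbtb16 values was not tested.

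Zbtb32 (ROG, repressor of GATA, chr7:30589681-30598909, minus strand), which restrains the proliferation and cytokine output of activated T cells, had the largest fold change of the family. It stood at 6.66, 6.32 and 9.17 CPM in WT thymic Treg cells, against 0.148, 0.151 and 0.134 CPM in WT mCD4SP cells, where the counts behind it were 4, 6 and 5. The log2 fold change was 5.64 (SE 0.324, adjusted p = 1.49e-14), and the groups were far apart. In KO mice the levels were 9.80, 7.05, 11.4 and 9.83 CPM in thymic Treg cells, against 0.695, 0.397, 0.350 and 0.219 CPM in mCD4SP cells. That gave a log2 fold change of 4.57 (SE 0.247, adjusted p = 2.42e-15).

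Zbtb10 (chr3:9250602-9285333, plus strand), a repressor of Sp-dependent promoters in human cells, showed the other wide gap. WT thymic Treg libraries held 9.72, 8.09 and 7.77 CPM, against 1.30, 0.404 and 0.805 CPM in WT mCD4SP libraries. Its log2 fold change was 3.40 in WT mice (SE 0.264, adjusted p = 1.19e-11) and 3.25 in KO mice (SE 0.226, adjusted p = 7.08e-13). In KO mice it ranged over 8.34 to 11.7 CPM in thymic Treg cells, against 0.700 to 1.62 CPM in mCD4SP cells. Unlike Zbtb32, its level changed little among the Treg groups, with all 21 Treg libraries between 6.41 and 11.7 CPM.

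The other higher members moved far less. Zbtb38 (CIBZ, chr9:96682770-96752831, minus strand), which binds methylated DNA, was at 54.4, 44.7 and 50.8 CPM in WT thymic Treg cells, against 40.2, 31.1 and 27.7 CPM in WT mCD4SP cells (log2 fold change 0.60, SE 0.121, adjusted p = 0.000155). Zbtb44 was at 70.6, 67.6 and 71.7 CPM, against 48.3, 49.5 and 54.1 CPM (0.47, SE 0.0938, adjusted p = 0.000157). Both groups were apart for each gene.
Zbtb5, a repressor of the cell cycle inhibitor gene Cdkn1a in human cells, averaged 30.3 ± 1.79 CPM in WT thymic Treg cells, against 23.1 ± 2.34 CPM in WT mCD4SP cells (0.40, adjusted p = 0.00718). Zbtb17 (Miz-1), a Myc partner that early lymphocyte development needs, averaged 27.2 ± 2.71 CPM, against 21.6 ± 0.220 CPM (0.33, adjusted p = 0.014), and lost the call without WT thymic Treg library 3 (adjusted p = 0.104). The 4 remaining higher members had log2 fold changes of 0.37 to 2.47, the widest being that of Zbtb46.

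Zbtb46 is given here after its values were seen, because it marks another cell type. It averaged 0.994 ± 0.227 CPM in WT thymic Treg cells, against 0.170 ± 0.138 CPM in WT mCD4SP cells (log2 fold change 2.47, adjusted p = 0.000278). Of 12 dendritic cell markers tested, 8 were higher in WT thymic Treg cells and 1 was lower, while their summed level was 275.2 to 326.2 CPM in WT thymic Treg cells, against 286.4 to 348.8 CPM in WT mCD4SP cells, where Clec10a and Batf3 were at 0. Of 15 myeloid markers 12 were higher, with summed levels of 822.6 to 979.5 CPM in WT thymic Treg cells, against 510.3 to 561.0 CPM in WT mCD4SP cells and none at 0 in either. B cell markers summed to 380.0 to 476.1 CPM in WT thymic Treg cells, against 49.0 to 63.3 CPM in WT mCD4SP cells, with 10 of 12 higher and Pax5 at 0 in both. CD8 T cell markers summed to 311.8 to 365.3 CPM in WT thymic Treg cells, against 110.5 to 122.4 CPM in WT mCD4SP cells, with 3 of 7 higher, 2 lower and none at 0. Most of that sum in Treg cells was Ccl5 (138.3 CPM, against 1.32 in mCD4SP cells) and Nkg7 (133.5 CPM, against 3.99). Eomes was also higher (log2 fold change 1.90), while Cd8b1 was lower (-1.02) and Cd8a was not called (0.58). The part of these lists in the values of any member was not tested.

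Among the lower members, Zbtb2, a repressor that acts in the p53 pathway in human cells, had 20.7, 24.4 and 23.4 CPM in WT thymic Treg cells, against 29.9, 33.8 and 36.8 CPM in WT mCD4SP cells (log2 fold change -0.55, SE 0.113, adjusted p = 0.000175). Zbtb8a had 11.5, 10.1 and 10.9 CPM, against 19.1, 19.6 and 15.6 CPM (-0.74, SE 0.168, adjusted p = 0.000616). Zbtb11 had 85.6, 82.7 and 88.1 CPM, against 95.1, 103 and 123 CPM (-0.33, SE 0.0789, adjusted p = 0.00114). The groups did not overlap for these 3 genes, nor for Zbtb9, which averaged 30.9 ± 2.88 CPM in thymic Treg cells, against 42.7 ± 2.04 CPM (-0.47, adjusted p = 0.00099).
Zbtb34 did overlap, at 10.1, 9.09 and 8.52 CPM in WT thymic Treg cells, against 9.98, 12.4 and 19.1 CPM in WT mCD4SP cells (-0.58, adjusted p = 0.00741). Without the third mCD4SP library, where it was highest, its log2 fold change was -0.27 and the adjusted p 0.206. The 2 further lower members were Zbtb6 and Zbtb33 (Kaiso, which binds methylated DNA), named after their values were seen, with log2 fold changes of -0.27 and -0.33.

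In KO mice 9 of 39 members were higher in thymic Treg cells than in mCD4SP cells and 13 were lower (56.4%, beside 56.5% of all genes, 30% higher and 26.5% lower). The lists of both genotypes shared 17 members, 8 higher and 9 lower in both, with no member called in opposite directions. That is 89.5% of the WT list and 77.3% of the KO list, beside 82.9% and 71% for all genes. Of the named WT genes, Zbtb44 (log2 fold change 0.04, adjusted p = 0.736) and Zbtb5 (0.03, adjusted p = 0.845) were not called in KO mice.

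**Figure D2:**
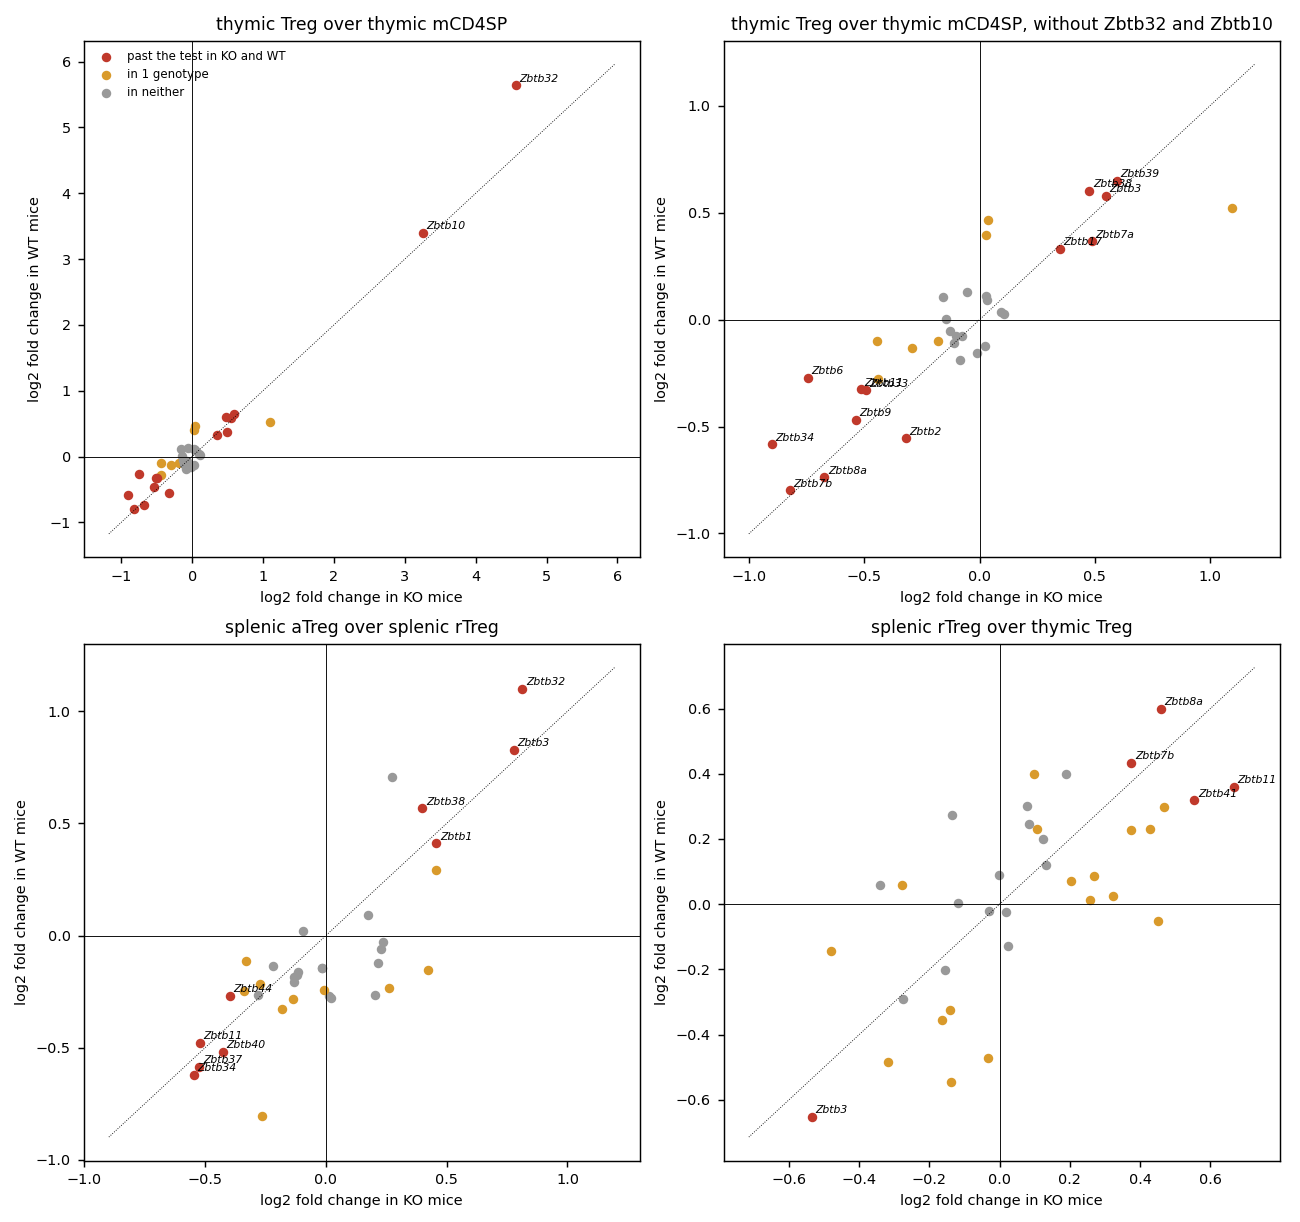
Log2 fold changes of 36 members (without Zbtb12, Zbtb16 and Zbtb46) in KO mice (x axis) and WT mice (y axis) for the 3 population comparisons, with thymic Treg over mCD4SP cells drawn in full and again without Zbtb32 and Zbtb10. Red points passed the test in both genotypes, orange in 1 and grey in neither, and the dotted line marks equal values. Zbtb32 and Zbtb10 stand alone at the upper right of the first panel.

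Splenic rTreg cells were compared with thymic Treg cells, the same lineage in another organ. In WT mice 6 members were higher and 7 lower (33.3%, beside 30.6% of all genes, 13.9% higher and 16.7% lower), with a median log2 fold change of 0.06 beside -0.01 over all genes. Zbtb11 and Zbtb7b had the smallest p among the higher members and Zbtb20 among the lower ones. The WT count was 8 without WT thymic Treg library 1 and 8 without WT rTreg library 1, runs whose shares over all genes are not given here. Myeloid markers moved in the same comparison, with 12 of 15 lower in WT rTreg cells and summed levels of 563.2 to 587.3 CPM, against 822.6 to 979.5 CPM in WT thymic Treg cells, none at 0. Genes known to respond to cell handling summed to 2178 to 2353 CPM in WT rTreg cells, against 1012 to 1174 CPM in WT thymic Treg cells, with 8 of 17 higher, 4 lower and none at 0. CD8 T cell markers summed to 107.5 to 118.4 CPM in WT rTreg cells, against 311.8 to 365.3 CPM in WT thymic Treg cells, with 1 of 7 higher, 2 lower and none at 0. Ccl5 (-2.63) and Nkg7 (-2.41) were the lower genes and Prf1 (1.29) the higher one, while Cd8a (-0.39) and Cd8b1 (-0.19) were not called. The part of these 3 lists in the members' values was not tested.

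Zbtb7b had 44.1, 44.3 and 50.1 CPM in WT rTreg cells, against 33.9, 35.6 and 33.2 CPM in WT thymic Treg cells. All rTreg libraries lay above all thymic Treg libraries (log2 fold change 0.43, SE 0.106, adjusted p = 0.00263), and the KO value was 0.38 (SE 0.0935, adjusted p = 0.00194), which became 0.24 without KO thymic Treg libraries 1 and 2 and was then not called (adjusted p = 0.0928). Zbtb16 had 0, 6 and 0 counts in the WT rTreg libraries, against 18, 3 and 10 in the WT thymic Treg libraries, and was not called (adjusted p = 0.145). It was called lower without WT rTreg library 2 (adjusted p = 0.0149), when the remaining rTreg libraries were both at 0 counts and the fitted fold change is no bound. Nor was Zbtb16 called in KO mice (log2 fold change -0.75, adjusted p = 0.507). Zbtb11 had 102, 108 and 119.6 CPM in WT rTreg cells, against 85.6, 82.7 and 88.1 CPM in WT thymic Treg cells (0.36, SE 0.0790, adjusted p = 0.000935). Again no rTreg library was as low as a thymic one, and in KO mice the difference was 0.67 (SE 0.0690, adjusted p = 1.45e-08).

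The other higher members were Zbtb8a, Zbtb2, Zbtb41 and Zbtb21. Zbtb8a averaged 16.4 ± 4.26 CPM in WT rTreg cells, against 10.8 ± 0.710 CPM in WT thymic Treg cells (log2 fold change 0.60, adjusted p = 0.00757). That rested in part on rTreg library 1 at 21.3 CPM, and the log2 fold change without it was 0.37 (adjusted p = 0.107). Zbtb2 averaged 30.0 ± 4.05 CPM, against 22.8 ± 1.88 CPM (0.40, adjusted p = 0.00818), Zbtb41 averaged 25.2 ± 2.21 CPM, against 20.3 ± 1.58 CPM (0.32, adjusted p = 0.0287), and Zbtb21 averaged 44.1 ± 4.22 CPM, against 37.6 ± 1.45 CPM (0.23, adjusted p = 0.0382). Zbtb2 lost the call without WT thymic Treg library 1 (adjusted p = 0.0508) or WT rTreg library 3 (adjusted p = 0.0738). Zbtb41 lost it without WT thymic Treg library 1 or 3 (adjusted p of 0.105 and 0.0869) or WT rTreg library 1 (0.139), and Zbtb21 without any 1 of the WT thymic Treg libraries (0.0507 to 0.118) or WT rTreg library 1 (0.218).

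Zbtb20, a repressor best known from brain and liver, had 51.1, 38.3 and 55.0 CPM in WT rTreg cells, against 63.8, 68.8 and 67.7 CPM in WT thymic Treg cells (log2 fold change -0.47, SE 0.125, adjusted p = 0.00496). The groups were apart, and the call was lost without rTreg library 2 (adjusted p = 0.0549). Zbtb3 averaged 2.66 ± 0.147 CPM, against 4.19 ± 0.466 CPM (-0.65, adjusted p = 0.0128), and Zbtb26 averaged 10.8 ± 1.53 CPM, against 15.1 ± 2.36 CPM (-0.48, adjusted p = 0.0172). Zbtb9 (-0.36, adjusted p = 0.0174), Zbtb34 (-0.55, adjusted p = 0.022) and Zbtb5 (-0.32, adjusted p = 0.0395) followed. Each of these 5 lost the call when some libraries were left out. Without WT thymic Treg library 1 the adjusted p was 0.108 for Zbtb26, 0.0905 for Zbtb34 and 0.109 for Zbtb5, and without WT thymic Treg library 2 it was 0.0638 for Zbtb3, 0.106 for Zbtb9 and 0.123 for Zbtb5. Without WT rTreg library 1 it was 0.11 for Zbtb5, without library 2 it was 0.102 for Zbtb26, 0.06 for Zbtb34 and 0.117 for Zbtb5, and without library 3 it was 0.121 for Zbtb9, 0.0716 for Zbtb34 and 0.0507 for Zbtb5. The remaining lower member, Zbtb46, averaged under 1 CPM in both groups.

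In KO mice 12 members were higher and 4 lower in rTreg cells than in thymic Treg cells (41%, beside 42.9% of all genes, 19.6% higher and 23.3% lower). Both genotypes called 6 members in the same direction, namely Zbtb11, Zbtb41, Zbtb7b and Zbtb8a higher and Zbtb3 and Zbtb46 lower. That is 46.2% of the WT list and 37.5% of the KO list, beside 78.4% and 55.9% for all genes. The KO count of 16 was 7 without KO thymic Treg libraries 1 and 2, an alternative chosen after seeing the data, and 10 without KO rTreg library 1. Shares of all genes called in those runs are not given here.

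Splenic aTreg cells were compared with splenic rTreg cells. The fractions differed strongly in the marker lists, with resting T cell genes summing to 2308 ± 136 CPM in WT aTreg cells and 6502 ± 102 CPM in WT rTreg cells, and activation genes to 4942 ± 124 CPM in WT aTreg cells and 743 ± 64.1 CPM in WT rTreg cells (SD, n = 3 each). In WT mice 5 members were higher in aTreg cells and 9 were lower (35.9%, beside 37.9% of all genes, 19.9% higher and 18.1% lower). The median log2 fold change was -0.17 beside -0.01 over all genes, and 28 of the 39 members had values below 0, beside 51.4% of all genes. The WT rTreg libraries here are those of the comparison with thymic Treg cells, so both sets of fold changes share them. With only the groups compared in the fit, the WT count was 9, and the share of all genes called in that run is not given here.

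Zbtb32 had 12.1, 14.0 and 17.0 CPM in WT aTreg cells, against 4.83, 6.91 and 8.31 CPM in WT rTreg cells, and no library overlapped (log2 fold change 1.10, SE 0.210, adjusted p = 0.000124). In KO mice it had 10.9, 12.9, 13.0 and 11.2 CPM in aTreg cells, against 5.68, 6.77, 7.97 and 6.90 CPM in rTreg cells (0.81, SE 0.182, adjusted p = 0.000702). Across the 4 WT populations its order was therefore mCD4SP lowest, then rTreg and thymic Treg cells, whose values overlapped, then aTreg cells. In KO mice the rTreg cells were lower than the thymic Treg cells (-0.48, adjusted p = 0.0349).

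Zbtb1 (chr12:76370266-76396950, plus strand) had 176, 187 and 166 CPM in WT aTreg cells, against 118, 125 and 154 CPM in WT rTreg cells (log2 fold change 0.41, SE 0.0837, adjusted p = 0.000269). Zbtb38 had 71.7, 82.7 and 72.0 CPM, against 49.2, 49.6 and 53.8 CPM (0.57, SE 0.120, adjusted p = 0.0004). Zbtb3 had 4.02, 4.20 and 5.95 CPM, against 2.79, 2.50 and 2.70 CPM (0.83, SE 0.198, adjusted p = 0.00146). The groups were apart for all 3, and each was also higher in KO aTreg cells, at 0.46, 0.40 and 0.78.

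Zbtb11 had the smallest p among the lower members, with 75.01, 83.8 and 77.6 CPM in WT aTreg cells, against 102, 108 and 119.6 CPM in WT rTreg cells (log2 fold change -0.48, SE 0.0794, adjusted p = 2.13e-05). The KO difference was -0.52 (SE 0.0690, adjusted p = 6.15e-07). Zbtb18 (RP58), a repressor known from neuronal development, had 5.10, 6.78 and 7.11 CPM in WT aTreg cells, against 10.1, 12.7 and 10.3 CPM in WT rTreg cells (-0.80, SE 0.168, adjusted p = 0.000351), and was not called in KO mice (-0.26, adjusted p = 0.155), where it was called without KO aTreg library 4 (-0.48, adjusted p = 0.00611). No aTreg library of either gene reached the lowest rTreg library in WT mice.

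Zbtb40 averaged 15.0 ± 1.04 CPM in WT aTreg cells, against 21.5 ± 2.06 CPM in WT rTreg cells (log2 fold change -0.52, adjusted p = 0.00159), and Zbtb37 averaged 13.6 ± 1.23 CPM, against 20.3 ± 1.12 CPM (-0.59, adjusted p = 0.00214). Zbtb21 averaged 36.3 ± 2.63 CPM, against 44.1 ± 4.22 CPM (-0.28, adjusted p = 0.00919), and Zbtb34 averaged 4.11 ± 0.743 CPM, against 6.32 ± 0.308 CPM (-0.62, adjusted p = 0.0101). Zbtb21 lost the call without WT rTreg library 1 (adjusted p = 0.0855) or WT aTreg library 3 (adjusted p = 0.055), and Zbtb34 without WT aTreg library 2 (adjusted p = 0.0512).
Zbtb7b had 39.2, 40.1 and 38.3 CPM in WT aTreg cells, against 44.1, 44.3 and 50.1 CPM in WT rTreg cells (-0.24, adjusted p = 0.0804, not called). In KO mice it had 50.9, 41.7, 45.4 and 39.1 CPM in aTreg cells, against 40.7, 32.1, 36.5 and 38.3 CPM in rTreg cells, where it was called higher (0.26, adjusted p = 0.0255) with overlapping groups. That call was lost without KO aTreg library 1 (adjusted p = 0.127) or 3 (0.055) and without KO rTreg library 2 (0.105) or 3 (0.0541). The difference between these effects did not pass the test (0.50, unadjusted p = 0.00153, adjusted p = 0.981).

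In KO mice 7 members were higher and 8 lower in aTreg cells (38.5%, beside 41.6% of all genes, 21.7% higher and 19.9% lower). Both genotypes called 9 members in the same direction, with Zbtb1, Zbtb3, Zbtb32 and Zbtb38 higher and Zbtb11, Zbtb34, Zbtb37, Zbtb40 and Zbtb44 lower. That is 64.3% of the WT list and 60% of the KO list, beside 80.7% and 73.5% for all genes. Of the myeloid markers 11 of 15 were higher in WT aTreg cells, with summed levels of 786.8 to 859.0 CPM, against 563.2 to 587.3 CPM in WT rTreg cells and none at 0. B cell markers summed to 767.0 to 1260 CPM in WT aTreg cells, against 323.7 to 434.4 CPM in WT rTreg cells, with 2 of 12 higher and none at 0. Dendritic cell markers summed to 542.0 to 747.9 CPM in WT aTreg cells, against 197.1 to 248.8 CPM in WT rTreg cells, with 8 of 12 higher, 0 lower and none at 0. CD8 T cell markers summed to 275.0 to 297.3 CPM in WT aTreg cells, against 107.5 to 118.4 CPM in WT rTreg cells, with 3 of 7 higher, 3 lower and none at 0. Ccl5 (3.04) and Gzmk (3.13) were among the higher genes and Cd8b1 (-0.77) and Eomes (-1.91) among the lower ones, while Cd8a (-0.64) was not called. The part of these genes in the members' values was not tested.

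Over the WT comparisons of populations, 28 of the 39 tested members (71.8%) were called at least once, beside 68% of all genes, and over those of both genotypes 35 (89.7%) were, beside 83.2% of all genes. These shares of the family were near the background. Zbtb11 and Zbtb3 were the members called in all 6. Zbtb12, Zbtb22, Zbtb25 and Zbtb43 were called in none, and are named because they complete that count. The ratio of the highest to the lowest of the 8 group means was 99.2 for Zbtb32, 25.5 for Zbtb16, 11.5 for Zbtb10, 6.95 for Zbtb46 and 3.36 for Zbtb34. The lowest group held 4, 6 and 5 counts for Zbtb32 (WT mCD4SP) and 0, 6 and 0 for Zbtb16 (WT rTreg). For Zbtb46 it held 2, 13 and 4 (WT mCD4SP), so the ratios of these genes have no firm size. At the flat end, the ratio for Zbtb24 was 1.15.

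**Figure D3:**
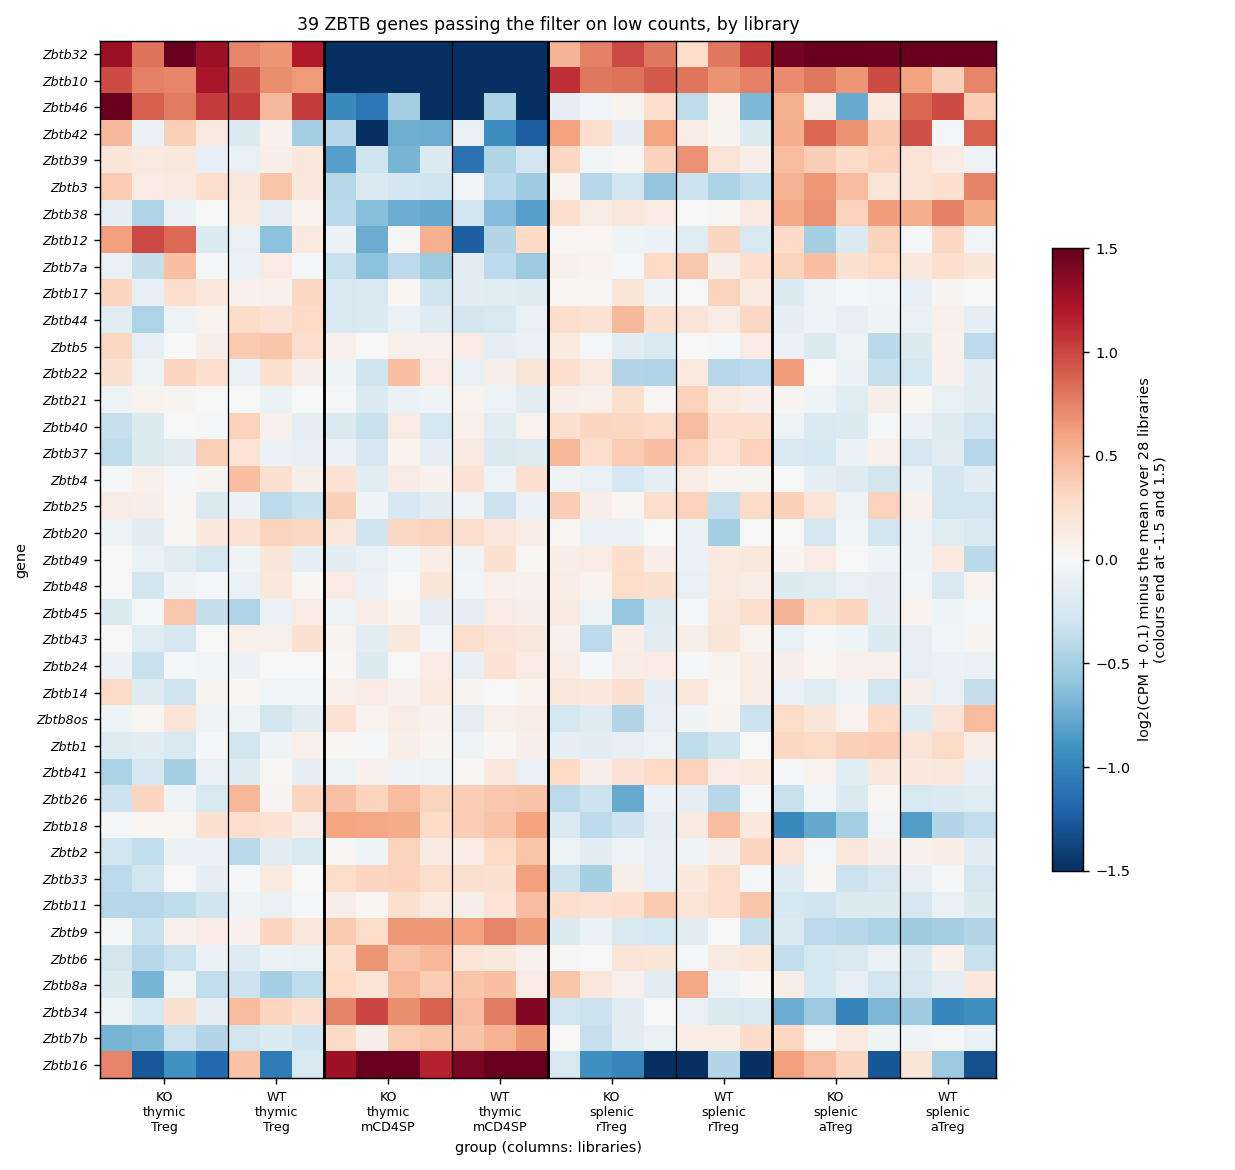
Level of 39 members in each of the 28 libraries, as log2(CPM + 0.1) minus the gene's mean over all libraries, with colours ending at -1.5 and 1.5. Zbtb32 and Zbtb10 are low in the mCD4SP libraries of both genotypes and Zbtb16 is high there, while most members differ little between libraries.

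KO cells were compared with WT cells within each population, which asks whether loss of CNS3 goes with changes in the family. In thymic Treg cells 0 members were higher and 2 lower in KO mice, Zbtb44 and Zbtb11 (5.13% of members, beside 9.34% of all genes, 4.21% higher and 5.13% lower). The median log2 fold change of the members was -0.09 beside 0.02 over all genes, with 24 of 39 below 0 beside 47.5% of all genes. For 7 members (17.9%) every KO library lay below every WT library, beside 10.4% of all genes, and for 1 (2.56%) every KO library lay above, beside 11.7% of all genes. DESeq2 also called 2, and its share over all genes was not set beside that count. In the other 3 populations edgeR called 0 members, as given for each below.

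Zbtb44 (chr9:31030644-31075885, plus strand) had 52.2, 42.2, 55.5 and 60.4 CPM in KO thymic Treg cells, against 70.6, 67.6 and 71.7 CPM in WT thymic Treg cells. No KO library reached the lowest WT library (log2 fold change -0.41, SE 0.0872, adjusted p = 0.00403). Zbtb11 (chr16:55973883-56008913, plus strand) had 66.4, 66.8, 69.0 and 72.6 CPM in KO cells, against 85.6, 82.7 and 88.1 CPM in WT cells, and the groups were apart (-0.32, SE 0.0740, adjusted p = 0.00827).

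These libraries differed in other sums as well. The share of read pairs in no gene was 42.3% to 45.0% in the KO thymic Treg libraries and 46.3% to 49.3% in the WT ones. Myeloid markers summed to 1054 to 1684 CPM in KO thymic Treg cells and 822.6 to 979.5 CPM in WT thymic Treg cells, with 5 of 15 higher, none lower and none at 0 in either group. CD8 T cell markers summed to 465.5 to 547.1 CPM in KO cells and 311.8 to 365.3 CPM in WT cells. In that list Ccl5 was higher (0.96, adjusted p = 0.0158), Eomes was lower (-1.47, adjusted p = 0.0353), and no other gene was called. Cd8a (-0.36) and Cd8b1 (-0.09) were among those not called. Activation genes summed to 1371 to 1723 CPM in KO cells and 989.2 to 1187 CPM in WT cells. Dendritic cell markers summed to 371.9 to 485.9 CPM in KO cells and 275.2 to 326.2 CPM in WT cells. For Treg cell markers the sums were 8592 to 9310 CPM and 7725 to 8361 CPM. No gene of these lists was at 0 in either group, and their called genes are not given here. The part of these lists in the members' values was not tested. The ZBTB members together took 0.0927% to 0.106% of gene counts in KO cells and 0.111% to 0.113% in WT cells.
With the share in no gene as a covariate neither gene was called (Zbtb44 -0.21, adjusted p = 0.651, and Zbtb11 -0.23, adjusted p = 0.517), nor with the myeloid sum as a covariate (-0.12, adjusted p = 0.64, and -0.20, adjusted p = 0.384). Without KO libraries 1 and 2, both genes had a log2 fold change of -0.27, with adjusted p = 0.0749 for Zbtb44 and 0.089 for Zbtb11. Genotype and these sums cannot be told apart in thymic Treg cells beyond these values.

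Members that were apart but not called in thymic Treg cells included Zbtb7b, at 28.5 ± 3.6 CPM in KO cells (SD, n = 4) and 34.2 ± 1.28 CPM in WT cells (SD, n = 3), a log2 fold change of -0.27 (adjusted p = 0.0893). Zbtb20, Zbtb4, Zbtb34 and Zbtb43 were also apart on the lower side with values of -0.30, -0.26, -0.41 and -0.23, and Zbtb8os on the higher side with 0.20 (adjusted p of 0.0714 or more), all 5 named after their values were seen. Zbtb16 had 0.216 ± 0.250 CPM in KO cells and 0.270 ± 0.180 CPM in WT cells (adjusted p = 0.842). Zbtb32 averaged 9.52 ± 1.81 CPM in KO cells and 7.39 ± 1.56 CPM in WT cells (0.36, adjusted p = 0.239). Zbtb10 averaged 9.60 ± 1.58 CPM in KO cells and 8.52 ± 1.05 CPM in WT cells (0.17, adjusted p = 0.626).

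**Figure D4:**
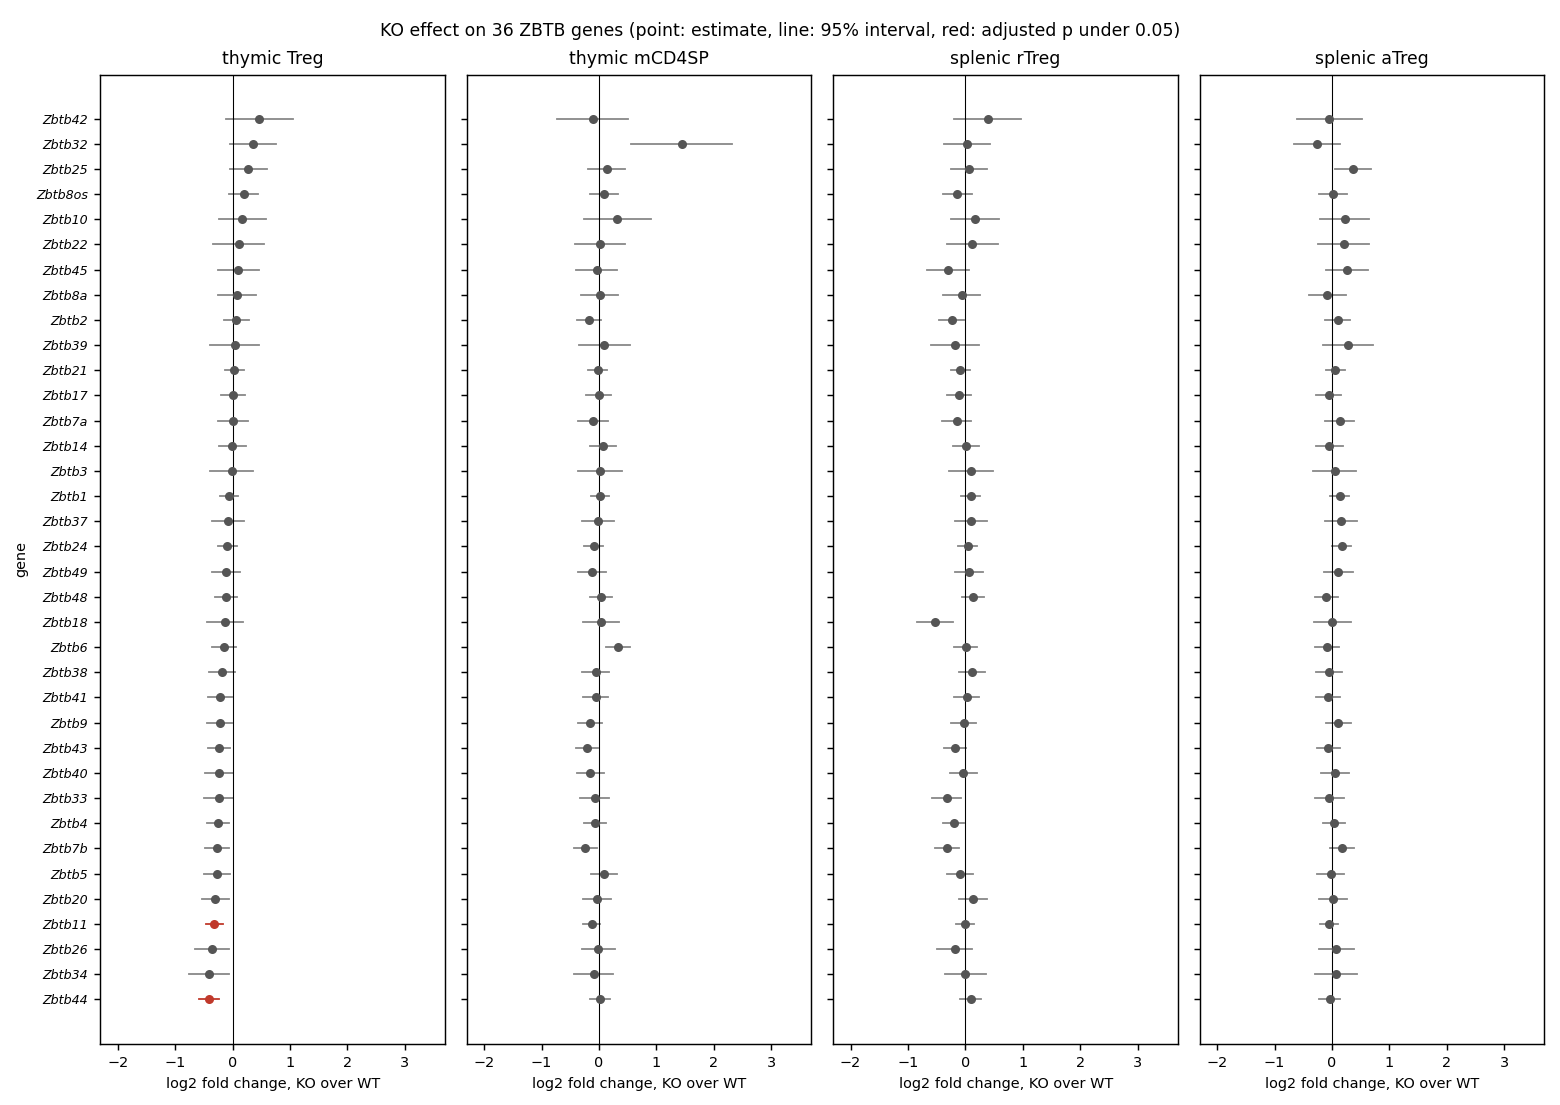
Log2 fold change of KO over WT for 36 members (the rare Zbtb12, Zbtb16 and Zbtb46 are left out) in each of the 4 populations, with 95% intervals from the fit. Red marks adjusted p under 0.05, which Zbtb44 and Zbtb11 alone of these 36 reached, both below 0 in thymic Treg cells.

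In mCD4SP cells 0 members were called by edgeR or by DESeq2 (0.195% of all genes were called by edgeR), and 4 had an unadjusted p under 0.05. Chance alone gives about 1 in 20 genes at that unadjusted threshold. The share of all genes under it was not counted, here or below, so such counts are no result about the family. Zbtb32 was the nearest, at 0.415 ± 0.201 CPM in KO cells and 0.145 ± 0.00920 CPM in WT cells, with counts of 17, 11, 10 and 8 in the KO libraries and 4, 6 and 5 in the WT libraries. Every KO library was above every WT library (log2 fold change 1.44, SE 0.427, adjusted p = 0.33). Of 8 Treg cell markers 4 were higher in the same KO libraries, Il2ra (2.38, adjusted p = 0.00738), Lrrc32 (2.25, adjusted p = 8.27e-05), Ikzf2 (0.85, adjusted p = 0.0061) and Ctla4 (0.68, adjusted p = 0.0213), and Foxp3 was lower (-1.25, adjusted p = 8.27e-05). The 8 markers summed to 441.4 to 696.4 CPM in KO cells and 363.1 to 382.1 CPM in WT cells, with none at 0 in either group, and their part in the Zbtb32 value was not tested. Zbtb7b averaged 50.4 ± 4.99 CPM in KO cells and 59.5 ± 5.0 CPM in WT cells (-0.24, adjusted p = 0.668), and Zbtb16 averaged 1.75 ± 1.08 CPM in KO cells and 1.47 ± 0.699 CPM in WT cells.

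In rTreg cells 0 members were called by either tool (0.135% of all genes by edgeR), and 5 had an unadjusted p under 0.05. Zbtb7b had 40.7, 32.1, 36.5 and 38.3 CPM in KO cells, against 44.1, 44.3 and 50.1 CPM in WT cells. The groups were apart, and the log2 fold change was -0.32 (SE 0.0991, adjusted p = 0.412). Zbtb18 had 7.88, 6.97, 7.43 and 8.30 CPM in KO cells, against 10.1, 12.7 and 10.3 CPM in WT cells (-0.53, adjusted p = 0.324), and is given because its groups were apart. Zbtb16 had 8, 3, 3 and 1 counts in the KO libraries, against 0, 6 and 0 in the WT libraries (0.97, adjusted p = 0.982).

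In aTreg cells 0 members were called by either tool (0.03% of all genes by edgeR), and 2 had an unadjusted p under 0.05. Zbtb16 had 12, 15, 10 and 2 counts in the KO libraries, against 11, 5 and 2 in the WT libraries (log2 fold change 0.83, adjusted p = 0.934). Zbtb7b averaged 44.3 ± 5.13 CPM in KO cells and 39.2 ± 0.937 CPM in WT cells (log2 fold change 0.17, adjusted p = 0.823). Across the populations Zbtb7b was thus lower in KO libraries, with groups apart, in thymic Treg, mCD4SP and rTreg cells, without passing the adjusted test in any. Without KO thymic Treg library 3 its adjusted p in thymic Treg cells was 0.0485 (log2 fold change -0.34), and with the myeloid sum as a covariate the log2 fold change was 0.015 (adjusted p = 0.975).

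Whether the KO effect differed between populations was tested directly, and 0 members were called by edgeR in the 3 differences tested (0.615%, 0% and 0.03% of all genes). Unadjusted p was under 0.05 for 4 members in thymic Treg minus mCD4SP cells, 4 in aTreg minus rTreg cells and 3 in rTreg minus thymic Treg cells. DESeq2 called 2, 0 and 1 members, and its share over all genes is not given here. For Zbtb44 the difference was -0.43 for thymic Treg minus mCD4SP cells (adjusted p = 0.104) and 0.50 for rTreg minus thymic Treg cells (adjusted p = 0.172) in edgeR. For Zbtb11 the value for rTreg minus thymic Treg cells was 0.31 (adjusted p = 0.34).

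**Figure D5:**
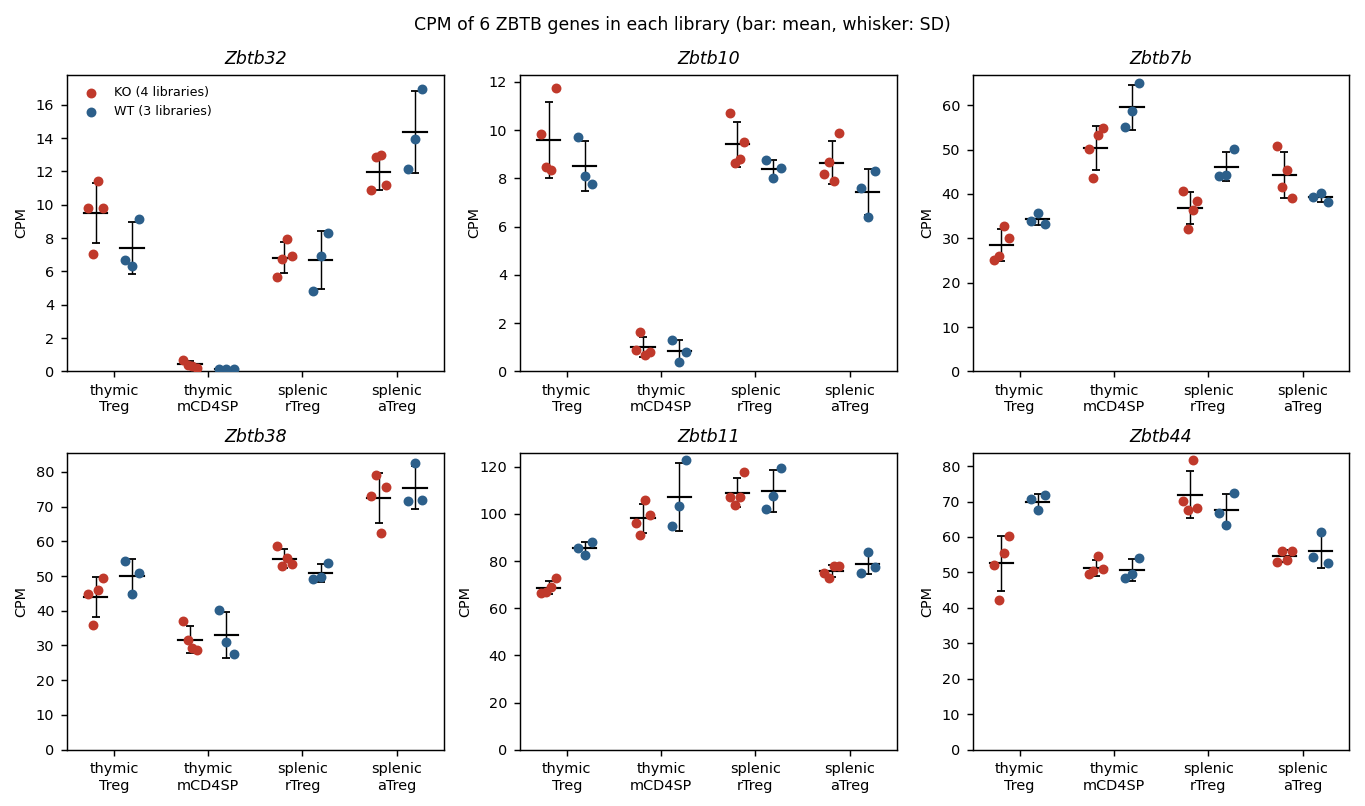
CPM of Zbtb32, Zbtb10, Zbtb7b, Zbtb38, Zbtb11 and Zbtb44 in every library, KO in red left of WT in blue for each population, with bars at the mean and whiskers of 1 SD. Zbtb32 and Zbtb10 are near 0 in mCD4SP cells, and Zbtb11 and Zbtb44 are lower in KO than in WT thymic Treg cells.

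Corepressor and adaptor genes that BTB domains are known to engage formed a list of 15, all tested. In WT thymic Treg cells 4 were higher and 5 lower than in mCD4SP cells, beside 26.8% higher and 21.6% lower of all genes. The largest change was in Nacc2, a BTB-domain corepressor, at 1.22 ± 0.185 CPM in thymic Treg cells, against 32.5 ± 5.86 CPM in mCD4SP cells (log2 fold change -4.74, adjusted p = 7.23e-13), and -4.14 in KO mice. Hdac5 (-1.18), a histone deacetylase, and Tbl1x (-0.46), a subunit of the NCoR complex, were also lower, and the deacetylase Hdac4 (0.38) was higher. The list's median was -0.16.

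In aTreg cells of WT mice 1 of these 15 genes was higher than in rTreg cells and 2 were lower (median -0.06), with Tbl1xr1, the paralog of Tbl1x, at 0.31, Tbl1x at -0.42 and the scaffold Sin3a at -0.25. Of all genes 19.9% were higher there and 18.1% lower. In rTreg cells of WT mice 3 of the list were higher than in thymic Treg cells and 2 lower (median 0.00), with Nacc2 at 1.31 and Hdac4 at -0.50. Of all genes 13.9% were higher there and 16.7% lower. Between KO and WT thymic Treg cells 0 of the list were higher and 4 lower (median -0.08), beside 4.21% higher and 5.13% lower of all genes. The 4 were Tbl1x (log2 fold change -0.33, adjusted p = 0.00562), Bcorl1 (-0.66, adjusted p = 0.0107), Ncor1 (-0.23, adjusted p = 0.0207) and Sin3a (-0.22, adjusted p = 0.0369), in the libraries whose other sums are given above. No gene of the list was called between KO and WT in the other 3 populations (edgeR, 0 with an unadjusted p under 0.05).

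BTB-domain relatives without the Zbtb symbol were a list of 10, of which 9 were tested. Bcl6, the repressor that drives follicular helper T cells, averaged 45.7 ± 0.914 CPM in WT thymic Treg cells, against 22.9 ± 2.56 CPM in WT mCD4SP cells (log2 fold change 0.997, adjusted p = 5.7e-06). Gzf1 was also higher there (0.62), and Patz1 (-0.67) and Mynn (-0.39) were lower, so 2 rose and 2 fell (beside 26.8% higher and 21.6% lower of all genes). Bach2, which holds T cells in a quiescent state, averaged 42.6 ± 4.96 CPM in WT aTreg cells, against 120.8 ± 10.6 CPM in WT rTreg cells (-1.505, adjusted p = 2.8e-13). In that comparison 2 of 9 were higher, Bcl6 (0.57) and Hic1 (2.24), and 3 lower (beside 19.9% higher and 18.1% lower of all genes). Between WT rTreg and WT thymic Treg cells 4 were lower, led by Bcl6 (-1.12), and 0 higher (beside 16.7% lower and 13.9% higher of all genes).
Between KO and WT thymic Treg cells 2 of 9 were lower and 0 higher, Bach2 at 115.8 ± 7.27 CPM in KO cells and 151.8 ± 4.67 CPM in WT cells (-0.39, adjusted p = 0.00352) and Bcl6 at 32.9 ± 7.5 CPM in KO cells and 45.7 ± 0.914 CPM in WT cells (-0.47, adjusted p = 0.0366). Of all genes 5.13% were lower there and 4.21% higher. No relative was called in the other 3 populations by edgeR, where 0, 2 and 1 had an unadjusted p under 0.05 in mCD4SP, rTreg and aTreg cells.

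Zbtb7b acts alongside other CD4 and CD8 fate genes, of which 12 were listed. Beside its lower level in WT thymic Treg cells relative to mCD4SP cells, 7 of these 12 were lower and 3 higher. Of all genes 21.6% were lower there and 26.8% higher. Gata3, which acts upstream of Zbtb7b in CD4 commitment, was at 400.4 ± 8.77 CPM in thymic Treg cells, against 160.5 ± 11.4 CPM in mCD4SP cells (log2 fold change 1.32, adjusted p = 1.86e-14). Runx3, the CD8 lineage factor that opposes Zbtb7b, was at 12.5 ± 1.07 CPM, against 35.0 ± 1.58 CPM (-1.49, adjusted p = 4.41e-12), and Tcf7 and Lef1 stood at -1.34 and -1.09.
In rTreg cells, where Zbtb7b was higher than in thymic Treg cells of WT mice, Runx3 was also higher (1.07, adjusted p = 1.91e-08), Gata3 was lower (-0.41, adjusted p = 0.000134), and in all 1 gene was higher and 5 lower (beside 13.9% higher and 16.7% lower of all genes). Between WT aTreg and WT rTreg cells 2 were higher and 4 lower, including Lef1 (-1.12) and Tcf7 (-1.01), beside 19.9% higher and 18.1% lower of all genes. Between KO and WT thymic Treg cells 0 were higher and 2 lower, beside 4.21% higher and 5.13% lower of all genes.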

How the data were processed

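RNA of sorted T cells was extracted with TRIzol, amplified with a SMART kit and sequenced as paired ends, per the labels' protocols. The deposited values are whole-number counts per gene, which the authors made with Trimmomatic, STAR and HTSeq on mm10, per the submitters' processing notes; versions, annotation and strand setting are not given in the sources used. Lines that name no gene stayed out of library sizes. Reads in no gene were 42.3% to 49.7%, and ambiguous reads 0.608% to 0.763%, of the counts in genes, in no gene and ambiguous together. Multiply mapped reads, 22.8% to 30.4% of the counts over all lines, stayed out too, so reads shared by near-identical genes were not counted.

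From these counts, 1 model over all 28 libraries and 8 groups was fitted with edgeR 4.0.16 (TMM scaling with factors of 0.970 to 1.04, quasi-likelihood F test). Genes needed a count of about 10 in at least 3 libraries, which 13338 passed. The threshold was a Benjamini-Hochberg adjusted p of 0.05. DESeq2 1.42.0, other filters and scaling, covariates and left-out libraries were alternatives. The scripts were tested on simulated data. Positions and exon lengths came from GENCODE M21 (GRCm38).

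Named throughout were Zbtb7b, Zbtb16 and members called between KO and WT, and, per WT comparison of populations, the 6 higher and 6 lower called members of smallest p provided the higher group had at least 1 CPM. From each gene list up to 4 called genes were named. The members, the lists and the rule for naming were set with earlier results of these data known, although membership itself rests on the gene symbol alone.

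Same-numbered libraries of a genotype were checked for pairing. Their deviations from the group means correlated by over 0.1 in every pair for WT thymic Treg and mCD4SP cells (0.107 to 0.133) and KO aTreg and rTreg cells (0.121 to 0.232), and there the numbers were taken to pair libraries, from the data and not the labels. In each other comparison of populations at least 1 pair was lower (lowest -0.00402), and the numbers were not taken to pair libraries. Over all populations of a genotype, however, same-numbered libraries had a median correlation of 0.104, against -0.0408 for libraries of different numbers, so a shared source is possible there too. The fit behind the Results held no pairs in any comparison, and counts with the number as a block are given below. Same-numbered KO and WT libraries of a population correlated by -0.0965 to 0.157 and were not taken as pairs either.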

Additional observations from a re-analysis of the deposited data

Results flagged for a closer look

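For the 22 members named by the rule, the highest and lowest library of each KO group of 4 was set against its neighbours (88 groups). In 3 groups 1 library lay farther out than Dixon's 95% limit allows, where chance gives about 1 in 20. Zbtb16 stood at 0.589 CPM in KO thymic Treg library 1, and the other KO thymic Treg libraries had 0.0715 to 0.120 CPM. Zbtb18 stood at 11.3 CPM in KO mCD4SP library 4, with 13.6 to 14.0 CPM in the other libraries of that group. Zbtb5 stood at 23.4 CPM in KO mCD4SP library 2, with 24.9 CPM in each of the others.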

How the results depend on the processing

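Of the 62 named gene results that passed the test, all 62 kept their direction and 40 kept the call in every alternative run. Of the 24 that did not pass, 8 changed sign in at least 1. The count of members called between KO and WT thymic Treg cells, 2, was 0 when the no-gene share was a covariate, 0 when the myeloid sum was one and 0 without KO thymic Treg libraries 1 and 2. DESeq2 called 2 members for the difference of the KO effect between thymic Treg and mCD4SP cells and 1 for that between rTreg and thymic Treg cells, where edgeR called 0. With only the groups compared in the fit, aTreg against rTreg cells in WT mice gave 9 in place of 14. Without KO thymic Treg libraries 1 and 2, chosen after seeing the data, rTreg against thymic Treg cells in KO mice gave 7 in place of 16. The cause was not tested. Shares of all genes called in the alternative runs are not given, here, above or below. Counts of members in those runs are therefore no result about the family.

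Leaving out 1 library at a time gave 2 to 3 members called between KO and WT thymic Treg cells and 0 to 0 in the other 3 populations. In WT mice it gave 14 to 18 for thymic Treg against mCD4SP cells, 10 to 15 for aTreg against rTreg cells and 8 to 11 for rTreg against thymic Treg cells (8 without WT thymic Treg library 1 or WT rTreg library 1). In KO mice the ranges were 21 to 23, 12 to 16 and 10 to 16 (10 without KO rTreg library 1). For the differences of the KO effect they were 0 to 1 for thymic Treg minus mCD4SP cells and 0 to 1 for rTreg minus thymic Treg cells, both 1 without KO thymic Treg library 4, and 0 to 0 for aTreg minus rTreg cells.

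With the replicate number as a block, 3 members were called between KO and WT thymic Treg cells (Zbtb20 in addition), 0 in the other populations and 0 for the differences, 19, 14 and 14 in WT mice and 22, 17 and 15 in KO mice (thymic Treg against mCD4SP, aTreg against rTreg, rTreg against thymic Treg). In the comparisons where the numbers were taken to pair libraries, the block thus left 19 members for thymic Treg against mCD4SP cells in WT mice. It gave 17 in place of 15 for aTreg against rTreg cells in KO mice, where Zbtb2 and Zbtb41 were added. No gene changed its call under the block in a comparison for which the rule named it. Elsewhere the samples share only a number, although 27 of 28 libraries correlated best with their own.

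Some values that had not passed the test changed sign. With the myeloid covariate, Zbtb7b between KO and WT thymic Treg cells was 0.015 and Zbtb16 between KO and WT mCD4SP cells was -0.096. Without KO thymic Treg libraries 1 and 2, Zbtb2 was -0.014 and Zbtb16 0.355 in rTreg against thymic Treg cells of KO mice. Leaving out 1 library gave Zbtb16 a range of -1.555 to 0.281 between KO and WT thymic Treg cells, -0.173 to 0.712 between KO and WT mCD4SP cells and -1.339 to 0.484 in rTreg against thymic Treg cells of KO mice, where Zbtb20 ranged over -0.081 to 0.029. In thymic Treg against mCD4SP cells of KO mice the range was -0.059 to 0.089 for Zbtb5 and -0.038 to 0.127 for Zbtb44. Depth limits Zbtb16 and, in mCD4SP cells, Zbtb32 and Zbtb10, which rest on few counts.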
